A study of Mus musculus with 15 samples.

Results

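The nuclear genes of the mitochondrial respiratory chain were followed in whole thymus of NOD.LCMV and NOD.Ln82-LCMV mice. The genes were chosen by name: every probe set with exactly 1 gene symbol beginning with Nduf followed by a, b, c, s or v, with Uqcr, with Atp5 or with Cox and a digit from 4 to 8, and the symbols Sdha to Sdhd. Cox7a1 and Cox6b1 were left out, and the probe set with the highest mean stood for a gene. The rule found 87 of the 19938 genes measured, through 112 probe sets, and used no difference between groups. Of these 87 genes, 72 encode common subunits of the 5 complexes, 7 are assembly factors of complex I whose names also begin with Ndufa, and 8 are isoforms or relatives of complex IV subunits. None of the 87 was removed by a filter.

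Female mice 5 weeks old received 0.5 µg of peptide into a vein, and RNA of the whole thymus was taken 2 h later. Treated mice were given gp33, a viral glycoprotein peptide of LCMV that the class I molecule Db presents, and control mice a different Db-binding peptide. There were 4 NOD.Ln82-LCMV arrays with the control peptide, 5 with gp33, and 3 NOD.LCMV arrays with each peptide, all Affymetrix Mouse Gene 1.0 ST. Each array was taken as 1 mouse, although the labels do not say whether arrays are technical repeats. The labels describe neither the Ln82 element that separates the strains nor the LCMV element that all 4 groups carry, and they name no batch. Strain and any batch that followed it therefore cannot be told apart. Values are on the log2 scale, and precision is limited by the few arrays in a group. The arrays carried the defining genes of thymus: 9 markers of double-positive thymocytes, the main immature stage, had array means between 10.48 and 11.45.

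The respiratory chain sits in the inner mitochondrial membrane. Complex I (NADH dehydrogenase) and complex II (succinate dehydrogenase) pass electrons to ubiquinone, complex III passes them on to cytochrome c, and complex IV (cytochrome c oxidase) hands them to oxygen. The proton gradient built on the way drives ATP synthase, which has a ring in the membrane and a catalytic head called F1. The genes followed here lie in the nucleus, and their proteins are imported and joined with subunits made from mitochondrial DNA. Developing thymocytes use the chain while they proliferate and are selected.

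Many promoters of such genes carry short motifs of the factors NRF1, GABP (of the ETS family) and YY1, so the stretch from 250 bases before to 50 bases after the gene start was searched for GCGCATGC (NRF1), CCGGAAGT (ETS) and AAGATGGC (YY1) on both strands. RefSeq promoter sequences of the mouse assembly GRCm38.p6 were matched for 71 of the 87 genes. At least 1 of the 3 motifs was found in 26 of them, or 36.6%, against 9.91% of all 27025 genes with a promoter sequence. A gene with several promoters counted once, with a motif in any of them. Those 27025 genes were not limited to the genes measured. The NRF1 letters were in 16.9% of the members' promoters and 3.05% of all, the YY1 letters in 14.1% and 3.19%, and the ETS letters in 7.04% and 4.31%. A match describes letters only, and their absence says nothing of the factor.

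The 4 promoters printed here, from 5′ to 3′ on the strand of the gene with the motif letters in capitals, belong to genes whose values are given in detail. Cox8a (chr19:7217567-7217866, minus strand) holds the ETS letters at 2 places in reverse complement. Ndufc1 (chr3:51408906-51409205, minus strand) and Ndufa3 (chr7:3617123-3617422, plus strand) each hold the YY1 letters at 1 place. Ndufaf4 (chr4:24897833-24898132, plus strand) holds 3 matches to the NRF1 letters, which overlap in its longer run of capitals because both strands match there.
Cox8a: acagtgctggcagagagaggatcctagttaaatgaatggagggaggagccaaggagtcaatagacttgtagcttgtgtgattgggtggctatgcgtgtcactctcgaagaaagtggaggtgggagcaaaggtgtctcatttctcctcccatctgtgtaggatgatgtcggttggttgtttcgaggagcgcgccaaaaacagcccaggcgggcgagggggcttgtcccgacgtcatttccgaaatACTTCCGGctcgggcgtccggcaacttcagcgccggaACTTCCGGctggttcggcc
Ndufc1: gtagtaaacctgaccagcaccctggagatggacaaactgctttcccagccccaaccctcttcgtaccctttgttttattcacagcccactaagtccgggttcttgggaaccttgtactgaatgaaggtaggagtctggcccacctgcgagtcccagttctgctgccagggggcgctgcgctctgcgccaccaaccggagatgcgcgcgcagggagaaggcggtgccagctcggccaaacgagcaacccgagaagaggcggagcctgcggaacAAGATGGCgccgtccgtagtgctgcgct
Ndufa3: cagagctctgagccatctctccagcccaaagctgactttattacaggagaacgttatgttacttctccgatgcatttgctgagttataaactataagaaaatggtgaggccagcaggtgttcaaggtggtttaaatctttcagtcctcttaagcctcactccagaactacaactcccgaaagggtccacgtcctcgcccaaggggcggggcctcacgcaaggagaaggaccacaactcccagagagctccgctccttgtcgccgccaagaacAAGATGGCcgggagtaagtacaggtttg
Ndufaf4: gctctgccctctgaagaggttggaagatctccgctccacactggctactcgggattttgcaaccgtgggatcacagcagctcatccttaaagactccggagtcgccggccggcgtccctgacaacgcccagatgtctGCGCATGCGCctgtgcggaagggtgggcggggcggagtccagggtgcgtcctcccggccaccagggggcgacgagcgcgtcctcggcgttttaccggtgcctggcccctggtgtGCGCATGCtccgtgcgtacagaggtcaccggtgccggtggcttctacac
The first 3 genes were lower in NOD.LCMV with both peptides and Ndufaf4 was higher there after gp33. Among the 41 members with a promoter sequence that were lower in NOD.LCMV with gp33, 18 (43.9%) held a motif. Among the 30 other members with a promoter sequence, 8 (26.7%) did. The motifs did not go the same way: the NRF1 letters were in 14.6% of the lower members and 20% of the others. The YY1 letters were in 19.5% and 6.67%, and the ETS letters in 9.76% and 3.33%. These shares were not tested. Atp5g1, Ndufs8 and Ndufv3, which were also lower, had none of the 3 motifs in this window.

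With the control peptide, respiratory chain genes were lower in NOD.LCMV thymus than in NOD.Ln82-LCMV thymus: 38 of 87 were called lower and 0 higher, where a call is a limma adjusted p under 0.05 over all genes. Of all genes, 5.54% were called lower and 4.77% higher in this comparison. At an unadjusted p under 0.05, 54 members were lower and 1 was higher. The median difference, NOD.LCMV minus NOD.Ln82-LCMV, was -0.19 log2 for the members and 0.01 for all genes, and 79 of the 87 members had a negative sign. In 45 members all 3 NOD.LCMV arrays lay below all 4 NOD.Ln82-LCMV arrays, which 9.36% of all genes did. Among the called members Atp5g1 had the largest difference, -0.71 log2.

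With gp33, in other mice, the pattern was the same in direction. There 47 members were called lower, against 16.8% of all genes, and 2 higher, against 10.2%, with a median of -0.22 log2 beside -0.02 for all genes. In 44 members all 3 NOD.LCMV arrays lay below all 5 NOD.Ln82-LCMV arrays, against 16.3% of all genes. Both peptides gave a lower call for 35 members, which are 92.1% of the 38 and 74.5% of the 47, and 4.2% of all genes were called lower with both. The 2 strain comparisons share no array, so these mice repeat the comparison, although a batch could have followed the strain in both. Both comparisons also used the same estimate of each gene's spread, from all arrays, so their calls are not fully independent. Uqcrq, Uqcrfs1 and Atp5md were called lower with the control peptide alone, 12 members with gp33 alone, and 35 members in neither. The call of Atp5md (-0.40 ± 0.10 log2, limma adjusted p = 0.0202), a small ATP synthase subunit, was lost without NOD.Ln82-LCMV control array 2 or NOD.LCMV control array 2 or 3 (0.0612, 0.0678 and 0.132), and also with the mean over its probe sets, only the groups compared, or the span trend taken out (0.0562 to 0.0613).

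**Figure D1:**
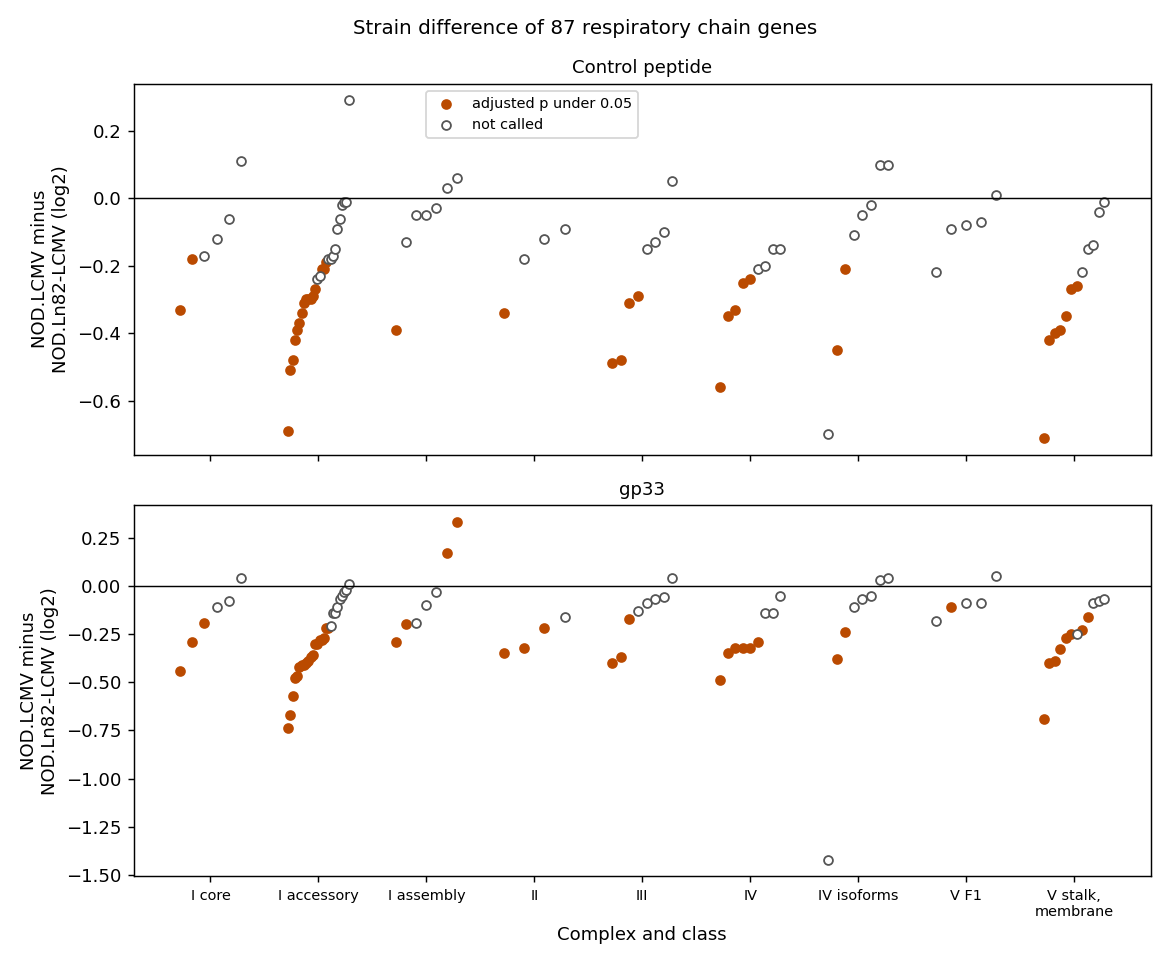
Difference between the strains in log2 (NOD.LCMV minus NOD.Ln82-LCMV) for each of the 87 genes, with the control peptide above and gp33 below, by complex and class; filled points passed limma's test at an adjusted p under 0.05. Most points lie under 0 in both panels, the medians are -0.19 and -0.22, and Cox8b at -0.70 and -1.42 is far below 0 without passing the test.

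The mean of the 87 genes on an array, as deviation from each gene's mean over all arrays, was above 0 on all NOD.Ln82-LCMV arrays and below 0 on all NOD.LCMV arrays. With the control peptide it was 0.05, 0.16, 0.14 and 0.03 in NOD.Ln82-LCMV and -0.06, -0.08 and -0.20 in NOD.LCMV. With gp33 it was 0.07, 0.10, 0.09, 0.03 and 0.12 in NOD.Ln82-LCMV and -0.18, -0.14 and -0.13 in NOD.LCMV. The strains did not overlap with either peptide. The lowest array was the third NOD.LCMV mouse with the control peptide, and without it 28 members rather than 38 were called lower with the control peptide, with a median of -0.15 log2.

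The NADH dehydrogenase of complex I held the most genes and the most calls. Its catalytic core, which binds flavin and carries the iron-sulphur clusters, had 2 of 6 measured genes lower with the control peptide and 3 of 6 with gp33. Ndufs8, an iron-sulphur subunit of the core, was 11.46, 11.42, 11.52 and 11.53 in NOD.Ln82-LCMV with the control peptide and 11.19, 11.19 and 11.07 in NOD.LCMV. With gp33 it was 11.39, 11.51, 11.41, 11.45 and 11.56 in NOD.Ln82-LCMV and 11.03, 11.09 and 10.94 in NOD.LCMV. Every NOD.LCMV array was lower than every NOD.Ln82-LCMV array given the same peptide. The differences were -0.33 ± 0.05 log2 (SE; limma adjusted p = 0.00135) and -0.44 ± 0.05 log2 (limma adjusted p = 9.85e-06), which are 1.26-fold and 1.36-fold lower. Ndufs7, another iron-sulphur subunit, was lower with both peptides (-0.18 ± 0.05 and -0.29 ± 0.05 log2), and Ndufs3 with gp33 (-0.19 ± 0.06). Ndufs1, the large iron-sulphur subunit, had differences of 0.11 ± 0.08 and 0.04 ± 0.07, and the flavin site genes Ndufv1 and Ndufv2 had differences from -0.06 to -0.12, with no call.

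The accessory subunits of complex I surround that core and stabilise it. Of 28 measured, 16 were lower with the control peptide and 19 with gp33, with medians of -0.23 and -0.29 log2, and none was higher. Ndufb9, of the membrane arm, was 11.15, 11.31, 11.23 and 11.06 in NOD.Ln82-LCMV with the control peptide and 10.75, 10.46 and 10.28 in NOD.LCMV. With gp33 it was 11.07, 11.21, 11.16, 10.90 and 11.20 in NOD.Ln82-LCMV and 10.26, 10.40 and 10.44 in NOD.LCMV. The groups did not overlap, and the NOD.LCMV arrays with the control peptide were the most spread (SD 0.24, n = 3). Ndufb9 was thus 1.61-fold lower with the control peptide, its 95% interval being 1.39 to 1.87 (limma adjusted p = 0.00071). The gp33 arrays gave 1.67-fold, between 1.45 and 1.93 (limma adjusted p = 2.97e-05).

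Ndufc1, a small accessory subunit of the membrane arm, whose promoter with the YY1 letters is printed above, was 10.26, 10.36, 10.49 and 10.24 in NOD.Ln82-LCMV with the control peptide and 9.90, 9.86 and 9.72 in NOD.LCMV. After gp33 the values were 10.37, 10.46, 10.42, 10.25 and 10.47 against 9.62, 9.81 and 9.74. No array of one strain reached the other. The differences were -0.51 ± 0.07 log2 (limma adjusted p = 0.000563) and -0.67 ± 0.07 log2 (limma adjusted p = 3.25e-06), and its second probe set gave -0.58 ± 0.08 and -0.70 ± 0.08. Ndufv3, an accessory subunit next to the flavin site, differed by -0.48 ± 0.07 and -0.57 ± 0.06 log2, and Ndufa3 by -0.29 ± 0.05 and -0.42 ± 0.04. The accessory subunits nearest 0 were Ndufab1, the mitochondrial acyl carrier protein (-0.01 ± 0.07 and -0.02 ± 0.06), and Ndufb10 (-0.01 ± 0.05 and -0.03 ± 0.05).

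Ndufs5, an accessory subunit, had a positive difference with the control peptide and a negative one with gp33, neither past the test. In NOD.Ln82-LCMV with the control peptide it was 7.90, 8.15, 7.52 and 7.59, and in NOD.LCMV 8.04, 8.20 and 8.01. The groups overlapped, and the difference of 0.29 ± 0.13 log2 had a limma adjusted p of 0.207. With gp33 the difference was -0.14 ± 0.13 log2 (limma adjusted p = 0.529). The change of the strain difference with the peptide, -0.43 log2, did not pass its own test (limma adjusted p = 0.193), so a change of sign was not shown.

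**Figure D2:**
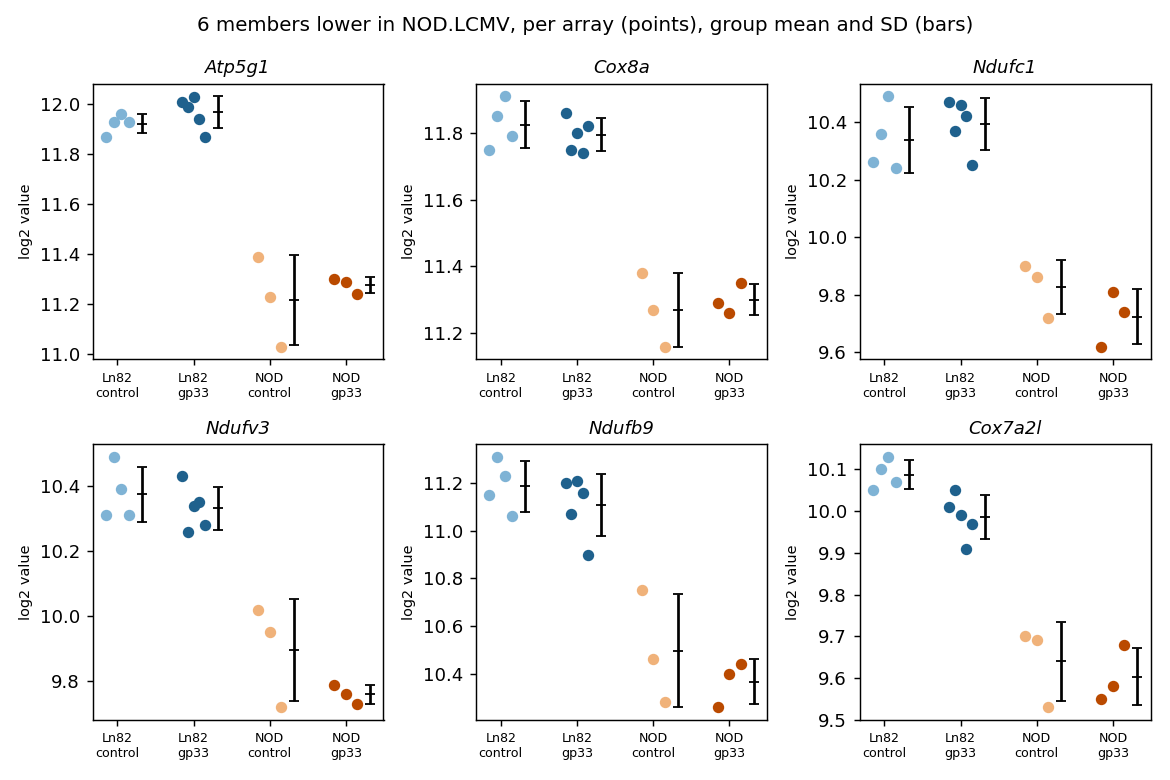
log2 value of 6 genes on each array (points), by strain and peptide, with the group mean and SD (bars, n = 3 to 5). For the genes shown, the NOD.LCMV points lie under the NOD.Ln82-LCMV points with either peptide, as for Atp5g1 with means of 11.22 and 11.28 against 11.92 and 11.97.

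Of the 4 genes of complex II, which links the tricarboxylic acid cycle to the chain, 1 was lower with the control peptide and 3 with gp33, and all 4 had negative signs with both. Sdhc, a membrane anchor, was lower with both peptides, by -0.34 ± 0.06 log2 (limma adjusted p = 0.00327) and -0.32 ± 0.06 (limma adjusted p = 0.000968). Sdhd, the other anchor, was 10.95, 11.04, 11.02, 11.10 and 11.14 in NOD.Ln82-LCMV with gp33 and 10.73, 10.66 and 10.71 in NOD.LCMV, without overlap, and differed by -0.35 ± 0.06 log2 (limma adjusted p = 0.000616). With the control peptide its difference was -0.18 ± 0.07 log2, and that did not pass (limma adjusted p = 0.0969). Sdha, the flavoprotein that oxidises succinate, was lower with gp33 by -0.22 ± 0.06 log2 (limma adjusted p = 0.00721) and had -0.09 ± 0.06 with the control peptide. Sdhb, the iron-sulphur subunit, was called in neither, with -0.12 ± 0.07 and -0.16 ± 0.07. Whether the strain difference changed with the peptide was tested as the difference between the responses, where the limma adjusted p was 0.345 for Sdhd and 0.431 for Sdha.

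Complex III had 4 of 8 genes lower with the control peptide and 3 of 8 with gp33. Uqcrh, the hinge protein that holds cytochrome c1, was 11.79, 11.66, 11.78 and 11.77 in NOD.Ln82-LCMV with the control peptide and 11.25, 11.35 and 11.20 in NOD.LCMV. The groups stood apart by more than their spread, and the differences were -0.48 ± 0.07 log2 with the control peptide (limma adjusted p = 0.000772) and -0.37 ± 0.07 with gp33 (limma adjusted p = 0.00074). Uqcr10, a small subunit, differed by -0.49 ± 0.08 and -0.40 ± 0.07 log2. The large core proteins moved less: Uqcrc1 had -0.10 ± 0.07 and -0.06 ± 0.07, with no call, and Uqcrc2 was lower with gp33 by -0.17 ± 0.05. Uqcrb, which lies near the ubiquinone site, had 0.05 ± 0.11 and 0.04 ± 0.10.

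Uqcrq and Uqcrfs1, the latter the Rieske iron-sulphur protein, were lower with the control peptide by -0.29 ± 0.06 log2 (limma adjusted p = 0.00377) and -0.31 ± 0.06 (limma adjusted p = 0.00555). With gp33 their differences were -0.13 ± 0.05 and -0.09 ± 0.06, and neither was called. The difference between the responses did not pass for either gene (limma adjusted p = 0.257 and 0.146), so a change of the strain difference with the peptide was not shown.

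Of the 9 common subunits of complex IV, 5 were lower with the control peptide and 6 with gp33, with medians of -0.24 and -0.32 log2. Cox8a, the smallest subunit, whose promoter with 2 ETS matches is printed above, was 11.75, 11.85, 11.91 and 11.79 in NOD.Ln82-LCMV with the control peptide and 11.38, 11.27 and 11.16 in NOD.LCMV. In the gp33 mice it was 11.75, 11.80, 11.74, 11.82 and 11.86 against 11.29, 11.26 and 11.35. The strains did not overlap. Cox8a was 1.47-fold lower with the control peptide, its 95% interval being 1.35 to 1.59 (limma adjusted p = 5.69e-05), and 1.41-fold lower with gp33, between 1.30 and 1.52 (limma adjusted p = 4.67e-06). Cox6a1, a regulatory subunit, differed by -0.33 ± 0.06 and -0.32 ± 0.06 log2, Cox6c by -0.25 ± 0.05 and -0.35 ± 0.05, and Ndufa4, a complex IV subunit despite its name, by -0.35 ± 0.08 and -0.32 ± 0.07. Cox4i1, one of the largest nuclear subunits, had -0.15 ± 0.07 and -0.14 ± 0.07 and was called with neither peptide.

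Among the 8 isoforms and relatives of complex IV, 2 were lower with both peptides. Cox7a2l, which joins complex III and complex IV into supercomplexes, differed by -0.45 ± 0.05 log2 with the control peptide (limma adjusted p = 0.000138) and -0.38 ± 0.05 with gp33 (limma adjusted p = 2.5e-05). Its dimmer second probe set gave -0.26 ± 0.07 with the control peptide and -0.02 ± 0.07 with gp33, so the call with gp33 rests on 1 of 2 probe sets. Cox6b2, known from testis, had -0.21 ± 0.06 and -0.24 ± 0.06. The first of these calls (limma adjusted p = 0.0377) was lost without NOD.Ln82-LCMV control array 2, 3 or 4, NOD.Ln82-LCMV gp33 array 3, or NOD.LCMV control array 1 or 3 (limma adjusted p from 0.0512 to 0.158), and with a variance trend, array weights or only the groups compared (0.0527 to 0.0837). Cox4i2, Cox6a2, Cox7b2, Cox8c and Ndufa4l2, forms known from lung, striated muscle, testis or hypoxic cells, had differences between -0.11 and 0.10 log2, with no call.

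Cox8b, the isoform of heart, muscle and brown fat, had the widest spread of the 87 genes. It was 10.08, 10.91, 10.69 and 7.98 in NOD.Ln82-LCMV with the control peptide and 10.30, 9.75 and 7.60 in NOD.LCMV. The gp33 arrays read 8.80, 10.13, 10.47, 9.99 and 11.17 against 8.27, 8.98 and 8.83. The strains overlapped with both peptides, and the differences of -0.70 ± 0.71 and -1.42 ± 0.67 log2 did not pass (limma adjusted p = 0.657 and 0.149). Ucp1, the uncoupling protein of brown fat, was 9.43, 10.66, 10.63 and 7.60 in NOD.Ln82-LCMV and 9.89, 9.95 and 7.73 in NOD.LCMV with the control peptide, so the array with the lowest Cox8b was also the lowest for Ucp1 in each of these groups.

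ATP synthase is described by its parts, which were not tested against each other. The 5 genes of the F1 head had medians of -0.08 and -0.09 log2, with 0 lower with the control peptide and 1, Atp5c1 (-0.11 ± 0.04), with gp33. Atp5b, the catalytic beta subunit, was 13.07, 13.13, 13.09 and 13.03 in NOD.Ln82-LCMV with the control peptide and 13.10, 13.09 and 13.08 in NOD.LCMV. These ranges overlapped, and the ratio had a 95% interval of 0.934 to 1.06, NOD.Ln82-LCMV over NOD.LCMV. Atp5a1, the alpha subunit, had -0.07 ± 0.04 and -0.09 ± 0.04, with no call.

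Of the 12 stalk and membrane genes, 7 were lower with the control peptide and 8 with gp33, with medians of -0.26 and -0.25 log2. Atp5g1, 1 of the 3 genes of the membrane ring, was 11.87, 11.93, 11.96 and 11.93 in NOD.Ln82-LCMV with the control peptide and 11.39, 11.23 and 11.03 in NOD.LCMV. Under gp33 the values were 11.99, 12.03, 11.94, 11.87 and 12.01 against 11.30, 11.29 and 11.24. The gap between the strains was wider than the spread within any group. Atp5g1 was 1.63-fold lower with the control peptide, its 95% interval being 1.48 to 1.80 (limma adjusted p = 4.91e-05), and 1.61-fold lower with gp33, between 1.47 and 1.77 (limma adjusted p = 1.05e-06). Its second probe set gave -0.62 ± 0.07 and -0.59 ± 0.07 log2.

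The other ring genes, whose mature proteins are the same, differed less: Atp5g2 by -0.26 ± 0.04 and -0.33 ± 0.04 log2, and Atp5g3 by -0.22 ± 0.08 and -0.07 ± 0.07, with no call. Atp5o, the stalk protein that ties the head to the membrane, differed by -0.42 ± 0.06 and -0.40 ± 0.06, and Atp5j2, a membrane subunit, by -0.39 ± 0.06 with each peptide. Atp5l, a membrane subunit with 6 probe sets, had -0.04 ± 0.09 and -0.09 ± 0.08. Some calls were at the edge: with gp33, Atp5k (-0.16 ± 0.05) lost its call without NOD.Ln82-LCMV gp33 array 1, 2 or 4 or NOD.LCMV gp33 array 1 or 3, with limma adjusted p values from 0.0602 to 0.186. Ndufa11 (-0.22 ± 0.07) lost its call without the same arrays, with values from 0.0602 to 0.123. Both calls were also lost with the span trend taken out, with cyclic loess and with the adipocyte covariate (limma adjusted p up to 0.144), and that of Atp5k with only the groups compared (0.0751).

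Of the 7 complex I assembly factors, 1 was lower and 0 higher with the control peptide, and 2 were lower and 2 higher with gp33, with 5 negative signs in each comparison. Ndufaf2, which stays on the complex until the last assembly step, was lower with both peptides (-0.39 ± 0.07 and -0.29 ± 0.07 log2), Ndufaf7, a methyltransferase that modifies a core subunit, was lower with gp33 (-0.20 ± 0.06), and Ndufaf4 and Ndufaf5 were higher with gp33. Ndufaf5, a hydroxylase that acts on a core subunit, was 7.94, 7.86, 7.88, 7.71 and 7.80 in NOD.Ln82-LCMV with gp33 and 7.94, 8.06 and 8.03 in NOD.LCMV. The groups touched, and the difference of 0.17 ± 0.05 log2 (limma adjusted p = 0.024) lost its call without NOD.LCMV gp33 array 2 or 3 (limma adjusted p = 0.112 and 0.0807). It was also lost under second quantile normalization, median centring, array weights and only the groups compared (limma adjusted p from 0.0516 to 0.08).

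The response to gp33 within a strain hardly reached these genes. In NOD.LCMV mice, where limma called 19.8% of all genes after gp33, 7.29% higher and 12.5% lower, 1 member was called higher and 0 lower. At an unadjusted p under 0.05, 2 were higher and 5 lower. The median response of the members was -0.05 log2, against -0.03 for all genes. In NOD.Ln82-LCMV mice 0 members were called, against 0.00502% of all genes called in either direction, and at an unadjusted p under 0.05 there were 0 higher and 1 lower, with a median of -0.01 log2. Downward separation without overlap was seen in 0.848% of all genes there. A missed threshold does not show that the members stayed level, and the 95% interval of the response in NOD.LCMV ran from -0.09 to 0.15 log2 for Cox8a and from -0.09 to 0.21 for Atp5g1.

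The gene that responded was Ndufaf4, which helps to build the membrane-side part of complex I and whose promoter holds the NRF1 letters printed above. It was 8.45, 8.44 and 8.52 in NOD.LCMV mice with the control peptide and 8.94, 8.97 and 9.05 with gp33. In NOD.Ln82-LCMV it was 8.57, 8.56, 8.65 and 8.62 with the control peptide and 8.80, 8.61, 8.59, 8.67 and 8.60 with gp33. Only the 3 NOD.LCMV gp33 arrays stood above all others of the 15. The rise in NOD.LCMV was 0.52 ± 0.06 log2, or 1.43-fold, between 1.32 and 1.55 at 95% (limma adjusted p = 8.47e-06), and the value in NOD.Ln82-LCMV was 0.05 ± 0.05 (limma adjusted p = 0.969). The responses differed by 0.46 ± 0.07 log2 (limma adjusted p = 0.000692). This test called 8.73% of all genes. Ndufaf4 was the 1 member called higher in it, against 4.46% of all genes, and 0 were called lower, against 4.26%. At an unadjusted p under 0.05, that test gave 2 members higher and 1 lower.

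The next members by adjusted p in NOD.LCMV did not pass. Uqcrq, a subunit of complex III, was 10.13, 10.12 and 10.01 with the control peptide and 10.22, 10.31 and 10.21 with gp33 (0.16 ± 0.06 log2, limma adjusted p = 0.0729). These arrays did not overlap. Ndufs5 had -0.36 ± 0.14 and Sdha -0.16 ± 0.06 (limma adjusted p = 0.0968 and 0.0942), also without overlap. In all genes, 10.9% were non-overlapping upward and 22% downward in NOD.LCMV. In NOD.Ln82-LCMV the smallest adjusted p values belonged to Cox7a2l (-0.10 ± 0.04), Uqcrfs1 (-0.11 ± 0.05), Atp5k (-0.10 ± 0.05) and Ndufa12 (0.11 ± 0.06), between 0.825 and 0.882.

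**Figure D3:**
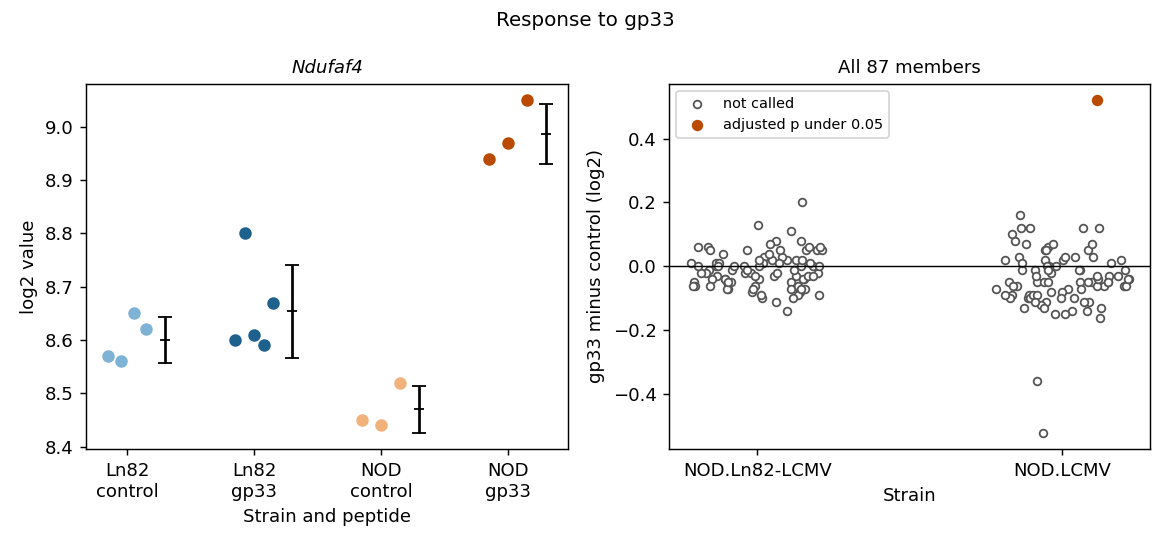
Left, log2 value of Ndufaf4 on each array (points) by strain and peptide, with group mean and SD (bars); right, response to gp33 in log2 of all 87 genes in each strain, with the called gene marked. Ndufaf4 rises by 0.52 in NOD.LCMV and by 0.05 in NOD.Ln82-LCMV, while the members' medians are -0.05 and -0.01.

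Other genes of the same machinery were set beside the members. Of 36 assembly factors outside the name rule, 9 were lower and 1 higher in NOD.LCMV with the control peptide, and 16 were lower and 4 higher with gp33. After gp33 in NOD.LCMV, 4 of these 36 rose and 8 fell, where 7.29% of all genes rose and 12.5% fell. Sdhaf1, which helps to insert iron-sulphur clusters into Sdhb, rose by 0.52 ± 0.06 log2 (limma adjusted p = 1.35e-05), and Taco1, a translational activator of a complex IV subunit, fell (-0.33 ± 0.05, limma adjusted p = 0.000136). Of 13 genes for cytochrome c, cytochrome c1, electron transfer flavoprotein and ubiquinone synthesis, 2 were lower with the control peptide and 4 with gp33. Coq5, a methyltransferase of ubiquinone synthesis, was lower with both (-0.50 ± 0.08 and -0.68 ± 0.08).

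Of 17 regulators of mitochondrial gene expression, 1 was lower with the control peptide, the mitochondrial rRNA methyltransferase Tfb1m (-0.33 ± 0.07 log2), and with gp33 2 were lower and 4 higher. Of the factors of the searched motifs, Nrf1, Gabpa and Yy1 were not called in any comparison. With the control peptide Nrf1 had 0.07 ± 0.05, Gabpa -0.02 ± 0.06 and Yy1 0.01 ± 0.04 log2. Gabpb1, which also belongs to GABP, was called in the strain comparison with gp33 and in no other. After gp33 in NOD.LCMV, Myc, a growth regulator, rose by 1.40 ± 0.07 log2 (limma adjusted p = 3.3e-09), and Pprc1, a coactivator of mitochondrial genes, by 0.82 ± 0.08 (limma adjusted p = 2.67e-06).

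Mitochondrial ribosomal proteins had 27 of 77 genes lower and 1 higher with the control peptide, and 28 lower and 5 higher with gp33. The import machinery (Tomm and Timm genes) had 9 of 24 lower with the control peptide and 7 lower and 5 higher with gp33. After gp33 in NOD.LCMV 9 of the 24 rose, such as Timm8a1 (0.66 ± 0.08 log2), where 7.29% of all genes rose. Of 14 tricarboxylic acid cycle genes, 2 were lower with the control peptide and 6 with gp33, with 0 higher in either. Of 12 glycolysis genes, 1 was lower and 1 higher with the control peptide, and 2 were lower and 4 higher with gp33. Of 54 cytosolic ribosomal protein genes, 15 were lower and 1 higher with the control peptide, and 20 lower and 3 higher with gp33. Of all genes, 5.54% were lower with the control peptide and 16.8% with gp33. Both ribosomal lists, import, the tricarboxylic acid cycle, the 36 assembly factors and the 13 electron carrier genes were above these shares for most or both peptides. Glycolysis genes had 8.33% and 16.7% lower, and the regulators 5.88% and 11.8%. Lower calls above the percentages of all genes were thus not limited to the respiratory chain, but did not hold for every list. The cytosolic ribosomal list was added after seeing the data.

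Gene span and brightness moved with the calls of all genes. The members' genes are short, with a median genomic span of 7.39 kb against 17.7 kb for all genes. With the control peptide, 6.81% of all genes in the shortest of 4 equal classes by span and 2.27% in the longest were lower in NOD.LCMV, while 2.41% and 9.36% were higher. With gp33 the lower calls did not run with span: from the shortest class to the longest they were 13.2%, 20.6%, 19.4% and 14.1%. With the control peptide 16 of 31 members in the shortest class were lower, and 18 of 41 in the next, where 7.75% of all genes were. Bright genes were called more often: with the control peptide 14.2% of all genes with a mean of 10 or more and 3.48% of the others were lower. Of the members in these classes, 29 of 58 and 9 of 29 were lower with the control peptide. With gp33, 36 of 58 and 11 of 29 were lower, against 28.7% and 14% of all genes. With a trend on span taken out of each array, 36 members were lower with the control peptide and 41 with gp33. The part of span and brightness in the differences was otherwise not tested.

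**Figure D4:**
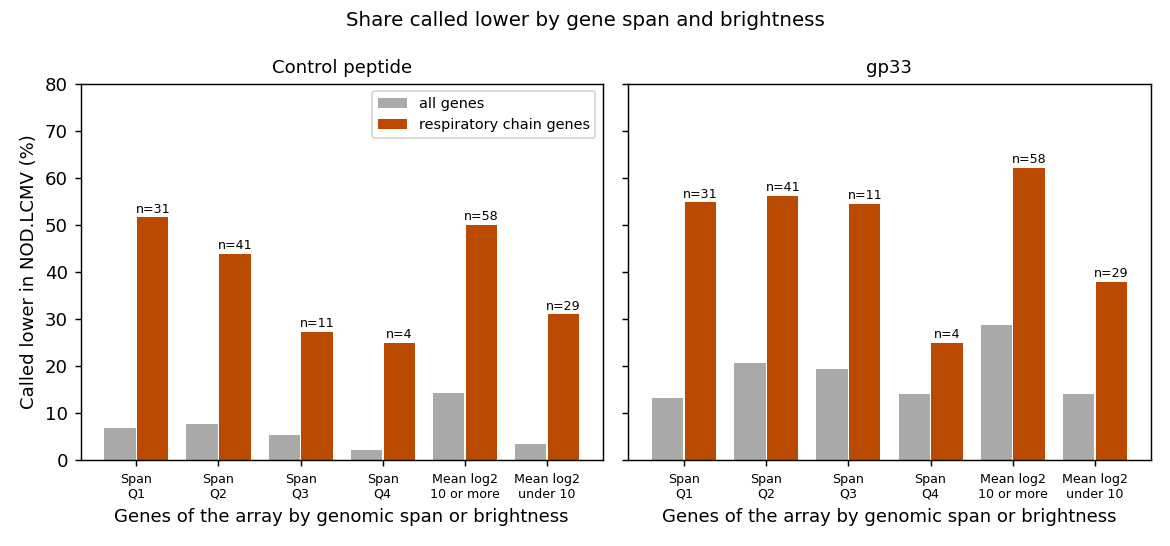
Share in percent of all genes and of the members called lower in NOD.LCMV, within 4 equal classes of genomic span and in 2 classes of mean log2, for each peptide. In the shortest class 51.6% of the members and 6.81% of all genes were lower with the control peptide, and 54.8% and 13.2% with gp33.

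Markers of other cells were read on the same arrays, and in whole thymus fewer cells of a type and less RNA per cell cannot be told apart. The 12 measured adipocyte markers had array means of 8.76, 9.57, 9.26 and 8.09 in NOD.Ln82-LCMV and 9.23, 8.72 and 7.82 in NOD.LCMV with the control peptide, so the strains overlapped. With gp33 they were 8.13 to 9.42 and 7.88 to 8.43. None of the 12 was called with the control peptide and 1 was lower with gp33, where 16.8% of all genes were lower. In both control groups and in NOD.LCMV with gp33, the array with the lowest adipocyte mean was also the one with the lowest mean of the members. In NOD.Ln82-LCMV with gp33 these were different arrays. With the adipocyte mean as a covariate, chosen after seeing the data, 35 members were lower with the control peptide and 39 with gp33, with medians of -0.17 and -0.15 log2.

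Of the other markers, 0 of 9 double-positive thymocyte genes were called with the control peptide and 5 were lower with gp33. The shares of all genes called lower were 5.54% with the control peptide and 16.8% with gp33. B-cell markers were lower for 1 of 6 and 4 of 6, with array means of 7.71 to 8.58 in NOD.Ln82-LCMV and 7.41 to 8.24 in NOD.LCMV with the control peptide. With gp33 these means were 8.23 to 8.77 and 7.43 to 7.88, without overlap. Of the red cell genes 1 of 2, Alas2, was lower with both peptides. The red cell means did not overlap either, at 8.01 to 8.12 against 7.62 to 7.76 with the control peptide and 7.96 to 8.62 against 7.55 to 7.72 with gp33. None of 9 epithelial, 9 dendritic cell and macrophage or 11 muscle markers was called with the control peptide, and 5, 6 and 0 were lower with gp33. Their part in the members' differences was not tested.

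**Figure D5:**
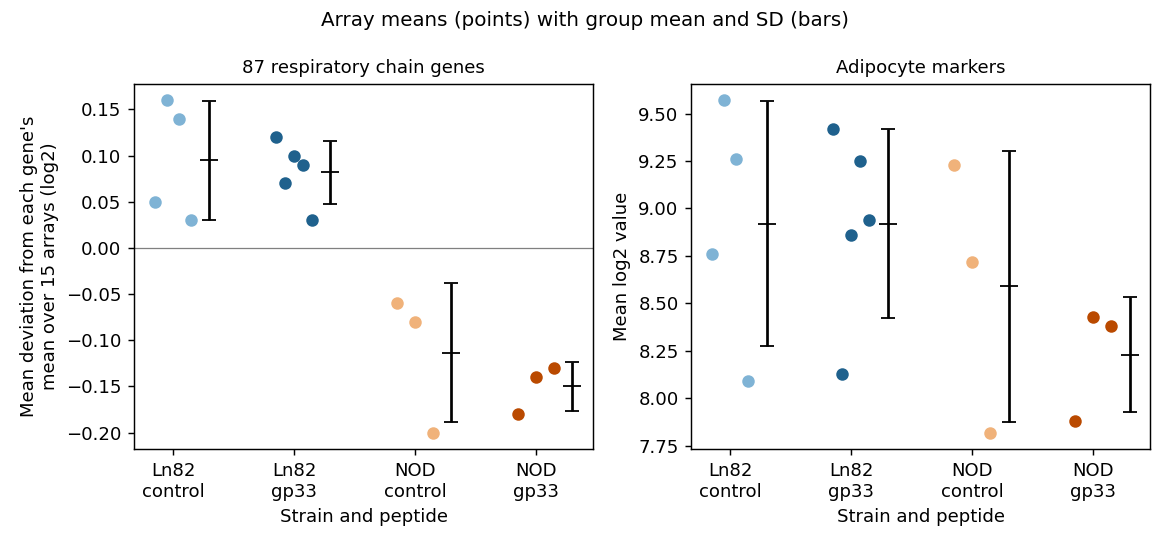
Mean of the 87 genes on each array as deviation from each gene's overall mean, and mean log2 of the adipocyte markers, by strain and peptide (points, arrays; bars, group mean and SD). The strains are apart for the members (0.03 to 0.16 against -0.20 to -0.06) and overlap for the adipocyte markers (8.09 to 9.57 against 7.82 to 9.23).

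The genes lower in NOD.LCMV lay on many chromosomes. All 4 members on chromosome 15 (Atp5g2, Cox6c, Ndufa6 and Ndufb9) and both on chromosome 16 (Atp5j and Atp5o) were lower with both peptides. On chromosome 9, 0 of 6 members were lower with the control peptide and 1 with gp33. On chromosome 2, 0 of 8 were lower with the control peptide and 3 with gp33. Calls of all genes were not counted by chromosome and each chromosome holds few members, so these counts cannot single out any chromosome. On chromosome 7, which holds Nfkbid, the gene in the study's title, 3 of 7 members were lower with the control peptide and 4 with gp33. Nfkbid itself differed by 0.15 ± 0.11 log2 with the control peptide (limma adjusted p = 0.477) and by 1.85 ± 0.10 with gp33 (limma adjusted p = 5.26e-09). Processed copies of respiratory chain genes are common in the genome, and 17 members had several probe sets. Their calls differed between probe sets for Atp5h, Cox7a2l and Ndufa11 with gp33 and for Atp5md and Cox7b with the control peptide. Transcripts of near-identical copies cannot be told apart on the array.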

How the data were processed

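RNA of whole thymus was measured on 15 Affymetrix Mouse Gene 1.0 ST arrays. The deposited values are log2 probe set signals that the authors made with Affymetrix Expression Console 1.1 and RMA, per the submitters' processing notes. RMA brings the arrays close to each other in distribution, so a shift shared by all genes cannot be read from them. The array medians over all probe sets still differed a little between the strains. With the control peptide they were 7.59 to 7.62 in NOD.Ln82-LCMV and 7.66 to 7.67 in NOD.LCMV. With gp33 they were 7.59 to 7.63 and 7.63 to 7.64. The cause of this offset and its part in the strain differences were not tested. Of 35556 probe sets, 21789 had 1 gene symbol in GEO's platform annotation, 1621 several and 12146 none, and single-symbol probe sets gave 19938 genes. One limma 3.58.1 model (R 4.3.3) held the 4 group means with eBayes. P-values were two-sided and adjusted by Benjamini-Hochberg over all genes, and intervals are 95%. The labels do not say whether arrays are technical repeats, and replicate numbers of NOD.LCMV mice are names only. NOD.Ln82-LCMV arrays of the same number did not deviate together (correlations 0.12, 0.01, -0.05 and -0.23), so no pairing was used. Members, gene lists and the rule for named genes (the smallest adjusted p per comparison, class and list, all of complex II and the complex IV isoforms, probe sets that disagree, and Nfkbid) were chosen with earlier results of these data known; further members were named after their values were seen. The tests were checked on simulated data with independent noise for each gene. Those data held no batch and no shift shared by an array, so the check says nothing of either.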

Additional observations from a re-analysis of the deposited data

Results flagged for a closer look

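The response of Ndufaf4 to gp33 differed between the strains by 0.46 log2 in the test of that difference. In 3 of 66 groups examined, 1 array stood apart from the rest by Dixon's criterion, which chance meets in about 1 of 20 groups. Only NOD.Ln82-LCMV groups were examined, so the check says nothing of the NOD.LCMV groups of 3 arrays. Cox7b2 was 5.55 on the first NOD.Ln82-LCMV control array and 5.49 to 5.50 on the others of its group. Ndufa4l2 was 6.98 on the second NOD.Ln82-LCMV control array and 7.12 to 7.14 on the others. Uqcrq was 10.5 on the fifth NOD.Ln82-LCMV gp33 array and 10.32 to 10.37 on the others.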

How the results depend on the processing

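With the control peptide, the members called numbered 32 with only the groups compared, 57 with median centring and 54 with array weights, beside 38, and the median was -0.25 log2 with median centring (-0.05 for all genes). With gp33 they numbered 41 to 58, beside 49, and the median was -0.15 with the adipocyte mean as covariate. For the response in NOD.LCMV, 2 members were called with median centring, with only the groups compared, with the span trend out, with cyclic loess and with the adipocyte covariate, and 6 (1 higher, 5 lower) with array weights; for the difference between the responses array weights gave 3. The cause was not tested. The span, loess and adipocyte settings were chosen after seeing the data. Leaving out 1 array gave 28 to 41 calls with the control peptide, 42 to 51 with gp33 (42 without the first NOD.LCMV gp33 array), 1 to 3 for the NOD.LCMV response (3 without the third NOD.LCMV control array) and 1 to 2 for the difference between the responses. The medians then ran from -0.22 to -0.15, -0.23 to -0.20, -0.08 to -0.02 and -0.05 to 0.00, and from -0.03 to 0.00 in NOD.Ln82-LCMV. With the replicate number as a block, 0 members responded in NOD.Ln82-LCMV, with a median of -0.03. Over the 32 members set by the rule for named genes, 3778 of 3995 alternative values kept sign and call, and 39 lost and 49 gained a call. The other 129, called in neither fit, turned sign, so that no called value did. Members named outside that rule, such as Ndufs7, Uqcrh and Atp5c1, were not followed gene by gene in these settings.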

Other observations

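Probe sets that carry more than 1 symbol were outside the 87 genes. Both probe sets of Ndufb4 and its copy Ndufb4b, an accessory subunit of complex I, were lower in NOD.LCMV, by -0.48 and -0.49 log2 with the control peptide and by -0.52 and -0.50 with gp33 (limma, adjusted over all probe sets). The 3 probe sets of Cox7c and Gm12338 had -0.07 to -0.08 and -0.08 to -0.10, with no call. The probe set of Ndufs5 and its pseudogene Ndufs5-ps was lower after gp33 in NOD.LCMV (-0.33 ± 0.09, limma adjusted p = 0.0349), where that of Ndufs5 alone did not pass.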
